A study of Mus musculus with 19 samples.

Results

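Replication-dependent histone genes were examined in the neocortex of mouse embryos at E13.5, a stage at which progenitors of the cortical wall divide and produce neurons. The genes were chosen by symbol, as every protein-coding gene named *Hist1h*, *Hist2h*, *Hist3h* or *Hist4h* in GENCODE M21. Of 67 such genes, 65 were found among the 51912 genes of the count files, and the other 2, *Hist1h2bh* and *Hist1h2bm*, were not analysed here. The 65 comprised 6 H1, 18 H2A, 16 H2B, 12 H3 and 13 H4 genes. On GRCm38, 52 lay on chromosome 13, 10 on chromosome 3, 2 on chromosome 11 and 1, *Hist4h4*, on chromosome 6.

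Each library came from 1 embryo. The 7 ctrl embryos were labelled as controls without a fuller genotype. The 5 cKO-E embryos carried *Emx1*-Cre with floxed *Ino80*, the catalytic subunit of a chromatin remodeler that slides and exchanges nucleosomes, and the 7 dKO-E embryos carried the same alleles with floxed *Trp53*, which encodes the p53 transcription factor. *Emx1*-Cre acts in cortical progenitors and their descendants, so vessels, microglia and neurons that migrate in from outside keep both genes. Mice were of mixed C57BL/6 and 129 background, and embryos are lettered as in the labels. The 19 embryos came from 7 litters and 3 sequencing batches, and both sexes were used.

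Histone proteins package DNA into nucleosomes. The core histones H2A, H2B, H3 and H4 form the particle and the linker histone H1 binds the DNA between particles. Cells make most of these proteins in S phase, when newly copied DNA must be packaged. The mRNAs of these genes are the main class in animals to end without a poly(A) tail: a short stem-loop near the 3′ end is bound by SLBP, and the transcript is cut just after it with help from the U7 snRNP, largely in nuclear histone locus bodies that form at the gene clusters. Libraries were made after removal of ribosomal RNA rather than by selection for poly(A), so that transcripts without a tail could be counted.

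The stem-loop is shown because it defines the RNA class that was counted. The M21 transcripts were searched for 16-base stem-loops with a fully paired 6-base stem that starts with GG and a 4-base loop that starts with TT. They were found in 42 of the 65 genes and in 109 of 21886 other protein-coding genes (0.498%). The other 23 had a median of 411 exonic bases, and short models, such as that of *Hist1h4k* at 312 bases, may end before the loop. A loop missing from a model therefore does not show that the gene lacks it. The form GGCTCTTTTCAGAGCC was the most common, with 24 genes (3 H1, 10 H2A, 6 H2B and 5 H3). The form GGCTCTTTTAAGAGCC was found in 6 genes (1 H1, 2 H2B and 3 H3). H4 genes had other stems, with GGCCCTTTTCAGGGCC in 7, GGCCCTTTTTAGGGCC in 2 and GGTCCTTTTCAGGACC in 2. *Hist2h2ac* alone of the 42 carried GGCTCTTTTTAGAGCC. Below, the 16 bases in capitals are the stem-loop and the 5 bases on either side are in lower case, written 5′ to 3′ on the coding strand.

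Hist2h2ac: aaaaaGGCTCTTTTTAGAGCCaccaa
Hist1h4i: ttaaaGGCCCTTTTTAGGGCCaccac
Hist1h2be: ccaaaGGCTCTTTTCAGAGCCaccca
Hist1h2ab: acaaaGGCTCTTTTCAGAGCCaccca
Hist1h1e: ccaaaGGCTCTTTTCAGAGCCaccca
Hist1h3e: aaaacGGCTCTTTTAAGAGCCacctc
Hist1h4d: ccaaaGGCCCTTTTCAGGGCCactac
Hist1h2bb: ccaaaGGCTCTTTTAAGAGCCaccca

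These forms differed between genes within the stem and in the loop itself, while the bases that follow began with AC in each of the 8. The annotated transcripts ran on past the loop by very different lengths. The M21 model of *Hist1h2ab* ended 11 bases after its loop and that of *Hist2h2ac* 57 bases after, whereas those of *Hist1h4i*, *Hist1h1e* and *Hist1h2be* went on for 330, 1153 and 1861 bases. Of the 42 genes, 25 had at most 300 annotated bases after the loop and 17 had more. Counts per gene do not show where reads fell relative to the loop. Any RNA not cut at the loop could therefore not be told apart from processed RNA in either set. In the 17, any reads from the annotated stretch past the loop were counted as well.

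Promoters are shown for the 3 genes that carried the clearest differences below, since histone classes differ in some of their promoter elements. The 250 bases before the RefSeq start were available for 60 of the 65 genes (GRCm38.p6). CCAAT, or ATTGG on the other strand, was present in 6 of 6 H1, 18 of 18 H2A, 14 of 14 H2B, 8 of 10 H3 and 3 of 12 H4 promoters, against 34.5% of 27025 promoters of the same length. The octamer ATTTGCAT (ATGCAAAT on the other strand), bound by POU-domain factors such as OCT1, was found in 7 of 18 H2A and 5 of 14 H2B promoters and in none of the 6 H1, 10 H3 and 12 H4 promoters, against 1.61% of all. The H1 box AAACACA, or TGTGTTT when read on the opposite strand, was found in 5 of 6 H1, 2 of 18 H2A and 1 of 14 H2B promoters and in none of H3 or H4, against 6.22% of all. TATAAA, read as TTTATA on the opposite strand, was found in 29 of the 60, against 13.0%. Capitals below mark these motifs on either strand, and the sequences are written 5′ to 3′ on the strand of the gene. They lie at chr3:96220881-96221130 on the minus strand for *Hist2h2ac*, chr13:23750838-23751087 on the plus strand for *Hist1h2ab* and chr13:22041363-22041612 on the minus strand for *Hist1h4i*.

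Hist2h2ac: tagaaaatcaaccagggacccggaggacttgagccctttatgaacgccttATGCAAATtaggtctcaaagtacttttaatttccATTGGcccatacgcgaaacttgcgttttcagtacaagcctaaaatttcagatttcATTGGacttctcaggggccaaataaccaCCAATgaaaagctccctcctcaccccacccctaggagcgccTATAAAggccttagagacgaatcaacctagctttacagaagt
Hist1h2ab: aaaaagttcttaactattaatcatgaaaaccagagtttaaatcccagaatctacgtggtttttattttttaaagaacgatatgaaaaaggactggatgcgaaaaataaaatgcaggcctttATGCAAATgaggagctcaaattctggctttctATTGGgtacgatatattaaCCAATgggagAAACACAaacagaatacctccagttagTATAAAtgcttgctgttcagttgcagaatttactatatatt
Hist1h4i: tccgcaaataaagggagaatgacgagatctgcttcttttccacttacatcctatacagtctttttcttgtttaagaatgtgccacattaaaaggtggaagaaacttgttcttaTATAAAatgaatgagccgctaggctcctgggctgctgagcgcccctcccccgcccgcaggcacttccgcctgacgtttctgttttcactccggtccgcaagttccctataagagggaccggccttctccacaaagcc

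*Hist2h2ac* and *Hist1h2ab* each held the octamer, CCAAT and TATAAA. The *Hist1h4i* window held only TATAAA, and *Hist1h2ab* was 1 of the 2 H2A promoters with AAACACA.

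Library totals on genes ranged from 820915 to 8095810 counts (median 2952788), so a gene at 3 counts stood at between 0.368 and 3.71 CPM, the counts scaled to a common library total with TMM factors. *Ino80* counted over the whole gene was 121 CPM in ctrl, 166 in cKO-E and 186 in dKO-E, with log2 fold changes over ctrl of 0.48 and 0.62 and adjusted p of 7.92e-05 and 8.84e-07, by edgeR's quasi-likelihood test. The alleles delete only some exons, so this sum does not check the labels. *Trp53* was 43.7, 39.2 and 34.6 CPM, lower in dKO-E than in ctrl (fell by 0.36 on the log2 scale, adjusted p = 0.0196). Markers of progenitors and neurons were present in every library, apart from *Sox2* and *Tubb3*, listed at 0 throughout, as was the replication licensing gene *Cdt1*. Summed over 8 microglial markers, cKO-E stood at 27.3 to 37.1 CPM, ctrl at 4.90 to 13.3 and dKO-E at 5.02 to 9.28. Their part in the histone levels was not tested. In bulk tissue, fewer cells of a type and less RNA per cell cannot be told apart.

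Histone genes took 0.150% to 0.317% of the counts on genes. H1 genes held 40.5% to 47.6% of the histone sum in each embryo, most of it from *Hist1h1e* (mean 446 CPM), *Hist1h1d* (176 CPM) and *Hist1h1b* (161 CPM), which encode linker histones H1.4, H1.3 and H1.5. Per kilobase of exon, the H2A gene *Hist1h2ak* was highest at 404 CPM per kb, followed by the H4 gene *Hist1h4k* (236), *Hist1h1e* (231), *Hist1h1b* (217), *Hist2h2ac* (200) and *Hist1h2ab* (162). The H2B genes *Hist1h2bb* (123 CPM per kb), *Hist1h2bj* (95.3) and *Hist1h2bf* (55.8) followed. *Hist1h4d* stood at 90.1 and *Hist1h4a* at 69.6 CPM per kb. The H3 genes with the highest mean CPM, *Hist1h3e*, *Hist1h3f* and *Hist1h3c*, stood at 27.7, 10.1 and 17.2 CPM per kb. This order and the H1 part of the histone sum are approximate. Unique sequence ran from 26.6% in *Hist1h3e* to 100% in *Hist1h1b* among these genes, and exon lengths include annotated sequence past the stem-loop. *Hist1h1e*, *Hist1h1d* and *Hist1h1b* had 68.0%, 97.7% and 100% unique sequence, against as little as 6% in core histone genes such as *Hist1h2af*.

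How far a histone gene could be counted depended on its sequence. Coding sequences of these genes are near-copies of one another, and reads that align to several places were not assigned to any gene. A 50-base window was called unique if it occurred in the M21 transcripts of no other gene. The 5 genes with no unique window had 3 members at 0 in every library and at most 96 counts over the 19 libraries. The 13 genes with over 0% to 15% unique windows had a median of 88 counts, the 16 with over 15% to 50% a median of 988.5, and the 31 with over 50% a median of 655. In all, 8 genes had 0 counts in every library and 4 had 1 to 10. Most of these 12 had few unique windows, and for those a low count does not show a low level. The exceptions were *Hist3h2a* and *Hist1h2aa*, at 0 with 68.5% and 76.2% unique windows, *Hist1h2ba* at 1 count (61.8%), and *Hist1h1t*, a testis linker histone, at 8 counts (100%). The 0 of *Hist3h2a* may still not show a low level. Its annotated model ran 1643 bases past the stem-loop, and its exons overlap those of *Trim17* on the same strand and *Gm44313* on the other. Exons of *Hist1h2aa* overlap those of *Gm44344* on the opposite strand.

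**Figure D1:**
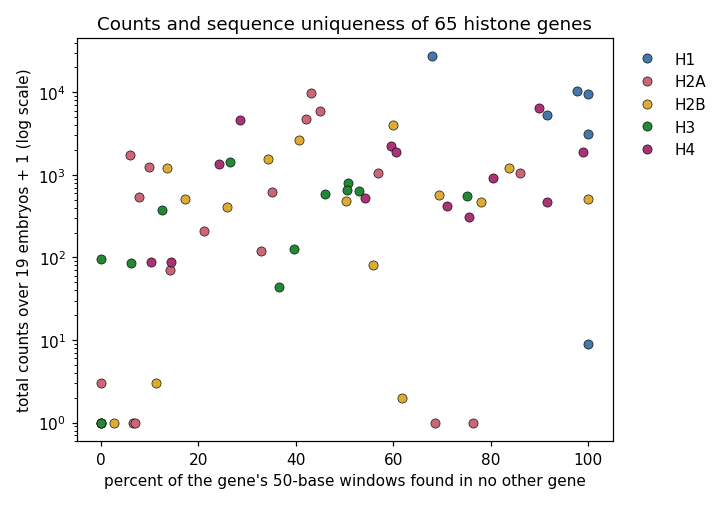
Total counts over 19 embryos plus 1 (log axis) against the percent of each gene's 50-base windows that occur in no other gene, with 1 point per histone gene and colors for the 5 classes. The 5 genes at 0% reach at most 96 counts, while *Hist1h1e* at 68.0% has 27397.

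After a filter on low counts, 43 of the 65 genes were tested in each of the 3 comparisons of genotypes and 22 were not. The tested set held 5 H1, 9 H2A, 11 H2B, 7 H3 and 11 H4 genes. A gene was called at a false discovery rate of 0.05 over every gene tested in that comparison.

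Loss of *Ino80* alone was compared with ctrl first. Of the 43 genes, 1 was lower in cKO-E and 0 were higher. Over all 11660 genes tested, 9.88% were lower and 7.31% higher. At an unadjusted p under 0.05 by the same quasi-likelihood test, 7 histone genes were lower and 1 was higher, where 15.5% and 14.3% of all genes were. DESeq2 called 3 (*Hist2h2ac* and *Hist1h2ab* lower, *Hist4h4* higher), beside 16.1% of all genes in either direction. With edgeR's likelihood-ratio test 4 were called, beside 19.3% of all genes. The median log2 fold change of the 43 was −0.15, with 31 genes below 0 and 12 above, beside a median of 0.02 over all genes with 5429 below and 6231 above. Leaving out ctrl embryo D raised the count of called genes from 1 to 3, by *Hist1h1b* and *Hist1h2ak*. It was 2 without ctrl B, F or H or without cKO-E B or E, so that the count of 1 rested on these embryos.

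The gene called lower was *Hist2h2ac*, an H2A gene of the chromosome 3 cluster (chr3:96220361-96220880, minus strand, 520 exonic bases). The 7 ctrl embryos ranged from 102 to 171 CPM with a median of 121. The 5 cKO-E embryos stood at 83.2, 101, 85.0, 81.5 and 98.0 CPM. Every cKO-E embryo lay below every ctrl embryo, though only just: the highest cKO-E value was 101 and the lowest ctrl value 102. Means were 89.8 ± 9.08 CPM for the 5 cKO-E embryos and 133 ± 26.8 for the 7 ctrl embryos (± SD), a log2 fold change of −0.53 (adjusted p = 0.00597, SE 0.12, edgeR quasi-likelihood). It was the 1 histone gene of the 43 whose groups did not overlap downward (0 upward), where 5.56% of all genes lay wholly below and 3.21% wholly above. Within litters the order held: 101 in cKO-E against 115 in ctrl in litter 4, 85.0 against 102 and 152 in litter 5, and 98.0 against 171 and 159 in litter 7.

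The ctrl level of this gene differed between sequencing batches, whose litters were also largely different. The 4 ctrl embryos of batch 1 ranged from 102 to 121 CPM and the 3 of batch 2 from 152 to 171. In cKO-E the batches overlapped, at 83.2, 101 and 85.0 CPM against 81.5 and 98.0. With batch 1 alone the log2 fold change in cKO-E was −0.34 (adjusted p = 0.0199) and with batch 2 alone −0.80 (adjusted p = 0.00229). Its exons overlap those of the opposite-strand gene *Gm44492*. Whether reads were counted by strand is not given in the sources used here, and so reads of the 2 genes may not be separable.

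By class, the 9 tested H2A genes all had log2 fold changes below 0 in cKO-E (median −0.28, range −0.53 to −0.16), of which 1 was called. Exons of all 9 overlap a gene on the opposite strand, as do those of *Hist1h4b* alone among the other tested genes. With the counting strand not given, H2A counts may include reads of those genes or lack reads shared with them. *Hist1h2af*, *Hist1h2ah* and *Hist1h2ai* also had only 6%, 7.87% and 9.88% unique windows. *Hist1h2ab* stood at 63.1, 79.7, 42.0, 46.9 and 57.1 CPM in cKO-E against a ctrl range of 59.5 to 101 (median 75.1), with a log2 fold change of −0.43 that missed the threshold (adjusted p = 0.0570). The summed H2A level was 373 ± 49.7 CPM for the 5 cKO-E embryos and 485 ± 55.2 for the 7 ctrl embryos (± SD), a ratio of 0.770, with 3 of 5 cKO-E embryos below every ctrl embryo. The other classes moved less. Log2 ratios of the summed levels were −0.17 for H1, −0.17 for H2B, −0.11 for H3 and −0.02 for H4, and the ranges of the groups overlapped in each class. Median log2 fold changes were −0.15 for H1 (4 of 5 below 0), −0.12 for H2B (8 of 11), −0.15 for H3 (5 of 7) and 0.01 for H4 (5 of 11), with 0 called in each of these 4 classes. Unadjusted p-values were under 0.05 for 2 lower H1 genes, 1 lower H3 gene and 1 higher H4 gene.

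Summed over the 65 genes, cKO-E embryos stood at 1807, 2085, 1545, 1752 and 1894 CPM (mean 1817 ± 198, SD, n = 5). The 7 ctrl embryos ranged from 1732 to 2318 CPM with a median of 2080 (mean 2067 ± 172, SD). The groups overlapped, with 1 cKO-E embryo below every ctrl embryo, and the log2 ratio of means was −0.19. Littermates did not all fall in the same order, with 2085 in cKO-E and 2073 in ctrl in litter 4, 1545 against 1732 and 2096 in litter 5, and 1894 against 2318 and 2063 in litter 7. Progenitor markers were lower in the same comparison: 10 apical progenitor markers summed to 1162 to 1509 CPM in cKO-E and 1418 to 1630 in ctrl (5 lower and 1 higher of 9 tested), and 6 intermediate progenitor markers to 309 to 399.6 CPM and 394 to 475 (2 lower and 0 higher of 6). Over all genes tested, 9.88% were lower and 7.31% higher. The part of these markers in the histone sums was not tested.

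**Figure D2:**
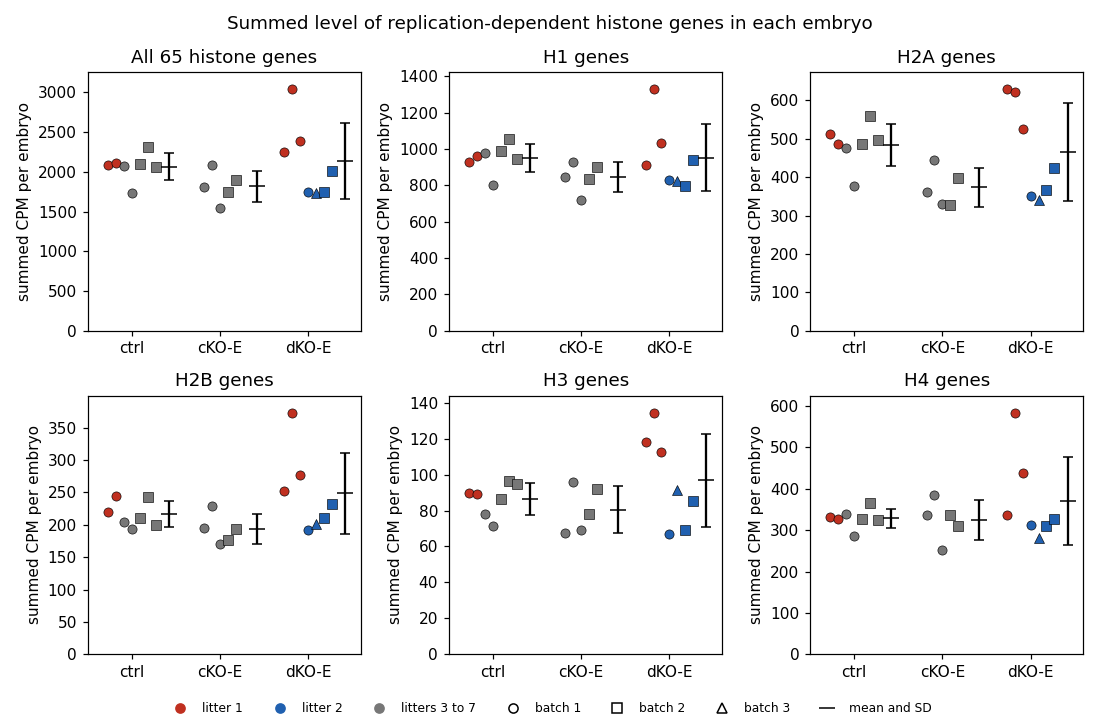
Summed CPM (linear axes from 0) of all 65 histone genes and of each class, with 1 point per embryo for ctrl, cKO-E and dKO-E. Color marks litter 1, litter 2 or litters 3 to 7, shape marks the sequencing batch, and the bar gives the group mean and SD. In dKO-E the 3 embryos of litter 1 sit at 2249 to 3047 CPM and the 4 of litter 2 at 1739 to 2009.

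Loss of both *Ino80* and *Trp53* was then compared with the same ctrl embryos, so the mutant comparisons with ctrl are not independent of each other. Of the 43 genes, 2 were higher in dKO-E and 1 was lower, where 5.45% of all 11381 genes tested were higher and 10% lower. The median log2 fold change was 0.18, with 33 genes above 0 and 10 below, beside 0.01 over all genes with 5855 above and 5526 below. At an unadjusted p under 0.05, 5 histone genes were higher and 1 was lower, where 13.1% and 16.5% of all genes were. Without ctrl embryo H, 5 were called, with *Hist1h2bf* and *Hist1h2bk* added.

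*Hist1h4i*, an H4 gene (chr13:22040636-22041362, minus strand), was higher in dKO-E. The ctrl embryos ranged from 3.92 to 7.30 CPM (median 5.16) and the dKO-E embryos from 7.53 to 13.0 (median 9.08). No dKO-E embryo fell within the ctrl range. Of the 43 genes this was the 1 whose groups did not overlap upward (0 downward), where 1.20% of all genes lay wholly above and 3.24% wholly below. The means were 9.33 ± 1.83 and 5.55 ± 1.34 CPM (SD, n = 7 each), a log2 fold change of 0.72 (adjusted p = 0.00654, SE 0.17, edgeR quasi-likelihood). The gene is a low one: it had 6 to 22 counts per ctrl library and 9 to 74 per dKO-E library. Both dKO-E litters stood above ctrl, at 8.57 CPM in litter 1 (log2 fold change 0.64, adjusted p = 0.0857) and 9.91 in litter 2 (0.81, adjusted p = 0.0227). With batch 1 alone it was 0.69 (adjusted p = 0.0422) and with batch 2 alone 0.94 (adjusted p = 0.246). In cKO-E it stood at 5.94, 5.35, 6.57, 4.94 and 8.11 CPM, and dKO-E against cKO-E missed the threshold (log2 fold change 0.53, adjusted p = 0.0523).

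*Hist2h2ac* was lower in dKO-E also, at 50.01 to 117 CPM (median 79.4, mean 85.7 ± 24.5, SD, n = 7), with a log2 fold change of −0.63 against ctrl (adjusted p = 0.00859, SE 0.15). Here the groups overlapped, since dKO-E embryos B and G reached 116 and 117 CPM. It was −0.42 (adjusted p = 0.129) with batch 1 alone and −0.87 (adjusted p = 0.00766) with batch 2 alone. It was −0.58 with dKO-E litter 1 (adjusted p = 0.113) and −0.69 with litter 2 (adjusted p = 0.00863). With litter as a block, which leaves litter 1 to carry the contrast, it was −0.39 (adjusted p = 0.338). The level in dKO-E did not differ from cKO-E past the threshold (log2 fold change −0.09, SE 0.15, adjusted p = 0.774).

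*Hist1h2be*, an H2B gene, was the second gene higher in dKO-E. Its ctrl embryos ranged from 12.6 to 26.2 CPM (median 18.6) and its dKO-E embryos from 17.3 to 28.2 (median 24.5), and the groups overlapped. The log2 fold change was 0.42 (adjusted p = 0.0467, SE 0.14), just inside the threshold. The call was lost without any 1 of ctrl A, B, C, D or I or of dKO-E A, B, C, E or F, where the log2 fold change was 0.33 to 0.44. Its dKO-E embryos of litter 1 stood at 25.0, 28.2 and 27.4 CPM and those of litter 2 at 20.8, 21.7, 24.5 and 17.3, without overlap. With either dKO-E litter alone *Hist1h2be* was not called against ctrl. Its M21 model (chr13:23583670-23621124, minus strand) spans the *Hist1h1e* gene in part, on the same strand, so counts that fall in both could not be assigned to either.

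**Figure D3:**
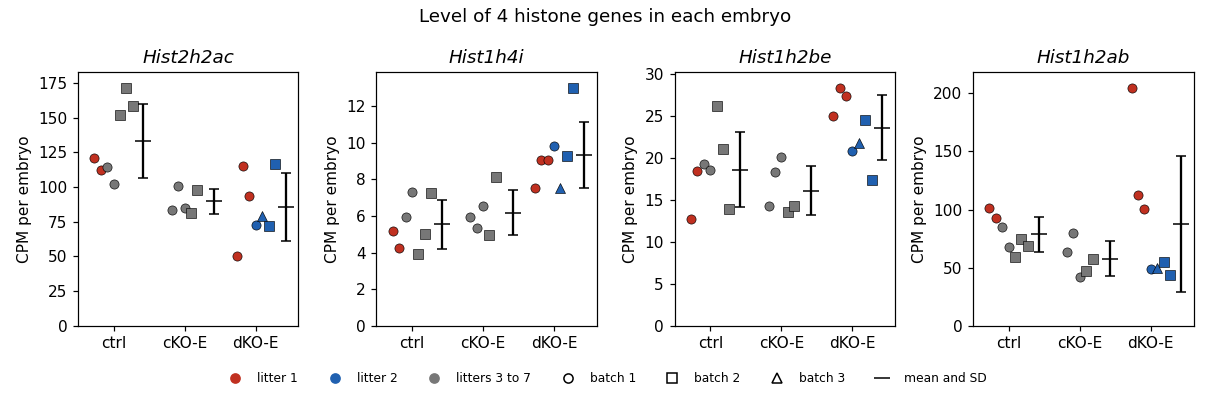
Level in CPM (linear axes from 0) of *Hist2h2ac*, *Hist1h4i*, *Hist1h2be* and *Hist1h2ab* in each embryo, marked by litter and batch, with the group mean and SD. For *Hist2h2ac* the 5 cKO-E embryos at 81.5 to 101 lie below the ctrl range of 102 to 171, and for *Hist1h2ab* the 3 dKO-E embryos of litter 1 lie at 100.2 to 204 and the 4 of litter 2 at 43.2 to 54.6.

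The sums of dKO-E were the most spread. Over all 65 genes dKO-E ranged from 1739 to 3047 CPM with a median of 2009 (mean 2134 ± 478, SD, n = 7), a log2 ratio to ctrl of 0.05 with overlapping groups, and 2 dKO-E embryos above every ctrl embryo. By class, log2 ratios to ctrl were 0.00 for H1, −0.06 for H2A, 0.20 for H2B, 0.16 for H3 and 0.17 for H4. Within H2A, 3 dKO-E embryos lay below and 2 above every ctrl embryo.

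To see what accompanied *Trp53* loss on top of *Ino80* loss, dKO-E was compared with cKO-E. The 2 groups shared no litter, so an effect of *Trp53* loss cannot be told apart from one of litter. Of the 43 genes, 1 was higher and 0 were lower, where 5.59% of all 11746 genes tested were higher and 9.42% lower. No histone gene was lower at an unadjusted p under 0.05 and 10 were higher, where 14.8% and 12.7% of all genes were. DESeq2 called 2 and edgeR's likelihood-ratio test called 3, beside 14.2% and 16.2% of all genes in either direction. The sexes were unbalanced, with 4 females and 1 male in cKO-E and 2 females and 5 males in dKO-E. With sex as a covariate 17 of the 43 were called, all higher, beside 20.8% of all genes called in either direction. With a filter of at least 1 count 15 of 57 were called, all higher, beside 8.05% of all genes. The median log2 fold change was 0.31, with 35 above 0 and 8 below, beside 0.02 over all genes. In 0 of the 43 did the groups separate in either direction, where 2.43% of all genes lay wholly above and 4.67% wholly below. The called gene was again *Hist1h2be*, at 14.2, 18.3, 20.1, 13.6 and 14.2 CPM in cKO-E (mean 16.1 ± 2.93, SD, n = 5) and 23.6 ± 3.86 in dKO-E (SD, n = 7), a log2 fold change of 0.57 (adjusted p = 0.00861, SE 0.14). The log2 ratio of the sums over 65 genes was 0.23, with 3 dKO-E embryos above every cKO-E embryo. The count of called genes was 4 without dKO-E D, 3 without dKO-E A or cKO-E E, and 2 without cKO-E B or dKO-E E.

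Markers of other cell types moved in the same comparison, where 9.42% of all genes were lower and 5.59% higher. Of 7 tested projection neuron markers 4 fell and 0 rose in dKO-E relative to cKO-E (median log2 fold change −0.44), with sums of 2263 to 3198 and 3338 to 4016 CPM. The 4 tested interneuron lineage markers were all lower (median −0.83), with sums over 6 markers of 28.8 to 69.3 and 63.8 to 119 CPM. Of 9 apical progenitor markers 3 were higher and 1 lower (median 0.26). Of 6 intermediate progenitor markers 0 were called (median 0.24). Their part in the histone levels was not tested.

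At the stricter false discovery rate of 0.001, 0 of the 43 genes were called in any of the 3 comparisons by edgeR's quasi-likelihood test. The corresponding shares of all genes were 3.38% for cKO-E against ctrl, 2.58% for dKO-E against ctrl and 3.13% for dKO-E against cKO-E. The counts at an unadjusted p under 0.05, given above, were 8, 6 and 10 histone genes in all. DESeq2 at a false discovery rate of 0.05 called 3, 3 and 2, beside 16.1%, 15% and 14.2% of all genes.

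**Figure D4:**
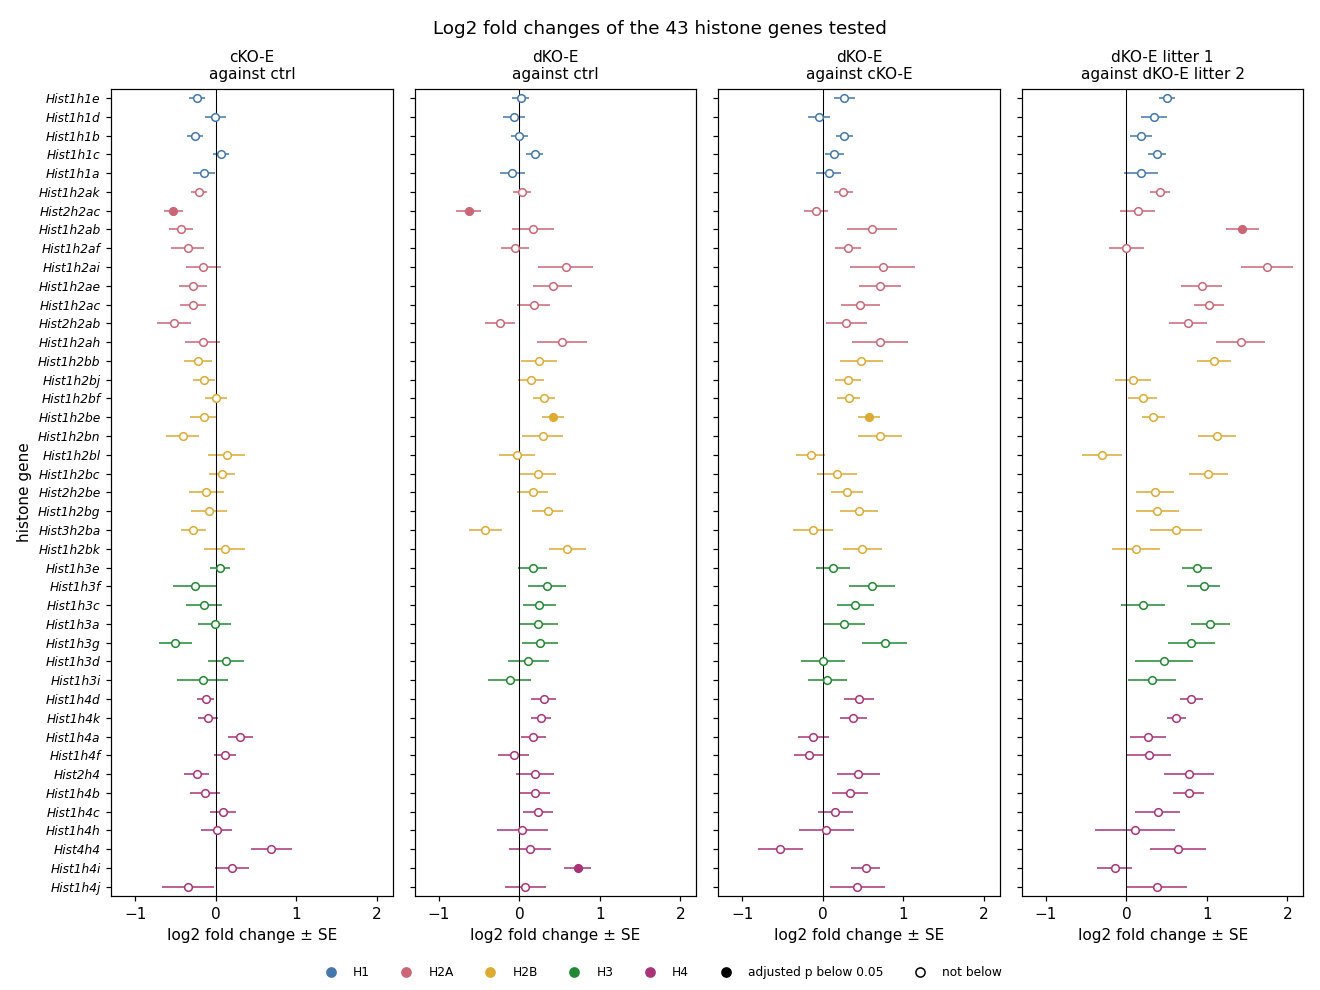
Log2 fold change ± SE of the 43 tested histone genes in 4 comparisons, grouped and colored by class, with filled points for an adjusted p below 0.05. Most points lie left of 0 for cKO-E against ctrl (31 of 43) and right of 0 for dKO-E against ctrl (33 of 43) and against cKO-E (35 of 43), with few filled.

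The 7 dKO-E embryos came from 2 litters, and these were compared after the spread of the sums had been seen. Embryos A, B and C of litter 1 stood at 2249, 3047 and 2386 CPM summed over the 65 genes. Embryos D, E, F and G of litter 2 stood at 1752, 1739, 1752 and 2009 CPM. Every embryo of litter 1 lay above every embryo of litter 2, at 2561 ± 426 (SD, n = 3) against 1813 ± 131 (SD, n = 4), a ratio of 1.41. The ctrl littermates A and B in litter 1 stood at 2080 and 2106 CPM, below the 3 dKO-E embryos of that litter. By class the ratio of litter 1 to litter 2 was 1.60 for H2A, 1.56 for H3, 1.47 for H4 and 1.44 for H2B, each without overlap, and 1.29 for H1 with overlap.

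Gene by gene, 44 histone genes were tested between the litters. Of these, 41 changed upward in sign and 3 downward, the median log2 fold change being 0.44, beside −0.00 over 11524 genes with 5680 above and 5844 below. One histone gene was called higher and 0 lower by edgeR's quasi-likelihood test, where 0.0521% of all genes (6 genes) were higher and 0% lower. Before adjustment, 22 of the 44 had p under 0.05 on the side of litter 1 and 0 on that of litter 2, where 6.12% and 4.10% of all genes did so. DESeq2 called 9. In 16 of the 44 every litter 1 embryo lay above every litter 2 embryo and in 0 below, where 5.54% of all genes lay wholly above and 4.89% wholly below. The count of called genes was 9 without embryo A, 3 without B, 10 without C, and 0 without D, E, F or G.

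The called gene was *Hist1h2ab*, an H2A gene of the chromosome 13 cluster (chr13:23751126-23751598, plus strand, overlapped on the other strand by *Gm44484*). Litter 1 embryos stood at 204, 113 and 100.2 CPM and litter 2 embryos at 48.6, 49.3, 54.6 and 43.2, a log2 fold change of 1.44 (adjusted p = 0.0351, SE 0.21). The ctrl embryos of litter 1 stood at 101 and 92.5 CPM and lay among the highest of ctrl. Against all ctrl embryos, litter 1 was higher (log2 fold change 0.75, adjusted p = 0.0360) and litter 2 lower (−0.69, adjusted p = 0.00302), so that the pooled dKO-E group showed 0.16 (adjusted p = 0.728).

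Other genes with the smallest p between litters lay just outside the threshold. *Hist1h4d*, an H4 gene, stood at 142, 196 and 131 CPM in litter 1 against 92.2, 72.8, 90.2 and 104 in litter 2 (log2 fold change 0.81, adjusted p = 0.0629). The linker gene *Hist1h1e* stood at 513, 660 and 516 CPM against 382, 394, 390 and 436 (0.50, adjusted p = 0.0735). *Hist1h2bb* (1.09), *Hist1h3e* (0.88), *Hist1h3f* (0.96) and *Hist1h4k* (0.62) had log2 fold changes with adjusted p from 0.0707 to 0.0983, and in each the litters did not overlap. *Hist2h2ac*, *Hist1h4i* and *Hist1h2bj* lay at 0.14, −0.14 and 0.08 with overlapping litters (adjusted p = 0.874, 0.874 and 0.938).

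Set against the 7 ctrl embryos, dKO-E litter 1 had 9 histone genes higher and 0 lower of 46 tested (background 1.69% higher, 4.57% lower) and a median log2 fold change of 0.45, and litter 2 had 1 higher and 4 lower of 43 (background 4.58% and 7.84%) and a median of −0.17. Those higher in litter 1 were the H2A genes *Hist1h2ab*, *Hist1h2ac* (0.58), *Hist1h2ah* (1.06) and *Hist1h2ai* (1.21), the H2B genes *Hist1h2bb* (0.69) and *Hist1h2bc* (0.62), *Hist1h3e* (0.52), and the H4 genes *Hist1h4d* (0.67) and *Hist1h4k* (0.55). *Hist1h2ah* and *Hist1h2ai* had under 15% unique windows, so their counts are uncertain. Litter 2 had *Hist1h4i* higher and *Hist1h2ab*, *Hist2h2ac*, *Hist2h2ab* (−0.68) and *Hist3h2ba* (−0.78) lower. Against the 5 cKO-E embryos, litter 1 had 17 higher and 0 lower (background 4.20% and 7.33%; median 0.50), and litter 2 had 0 higher and 1 lower, *Hist4h4* (background 3.32% and 8.07%; median −0.02).

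Litter was partly confounded with batch and sex. The litter 1 dKO-E embryos were all of batch 1 and were 2 females and 1 male, while those of litter 2 were males spread over batches 1, 2 and 3. With batch 1 alone, which leaves 3 embryos against 1, *Hist1h2ab* had a log2 fold change of 1.49, with 0 histone genes called. With sex as a covariate it was 1.02 and 0 were called. In the fit to batch 1, 50 of 52 tested histone genes lay above 0. In the same batch, dKO-E against ctrl gave a median of 0.34 with 42 of 45 above 0, and in batch 2, which held dKO-E embryos of litter 2 only, −0.13 with 15 of 43 above 0. cKO-E against ctrl gave −0.09 in batch 1 and −0.20 in batch 2. No litter held both dKO-E and cKO-E embryos.

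Levels of other gene groups were compared across the same dKO-E embryos. The sum of 49 genes of DNA replication in S phase stood at 2765, 3308 and 2728 CPM in litter 1 and 2773, 2795, 2777 and 2984 in litter 2, so the litters overlapped. The median log2 fold change of its 48 tested genes was 0.07, with 0 called. Before adjustment 5 of its genes were higher with p under 0.05, where 6.12% of all genes were. The sum of 6 intermediate progenitor markers stood at 471, 426 and 457 CPM in litter 1 and 361, 326, 398 and 315 in litter 2, without overlap, with a median log2 fold change of 0.35 and 0 of 6 called. Before adjustment 5 of the 6 were higher and 0 lower with p under 0.05, where 6.12% and 4.10% of all genes were. In 5 litter 1 lay wholly above litter 2 and in 0 wholly below, where 5.54% and 4.89% of all genes did. The 10 apical progenitor markers summed to 1399, 1516 and 1402 CPM against 1299, 1311, 1308 and 1436, and overlapped. Meningeal and pericyte markers stood at 17.9, 42.6 and 36.7 CPM against 16.3, 34.3, 17.8 and 24.9. Reads that aligned to more than one place were 20.9% of all reads tallied in dKO-E embryo A and 14.9% to 18.9% in the other libraries. The part of these in the histone difference was not tested.

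**Figure D5:**
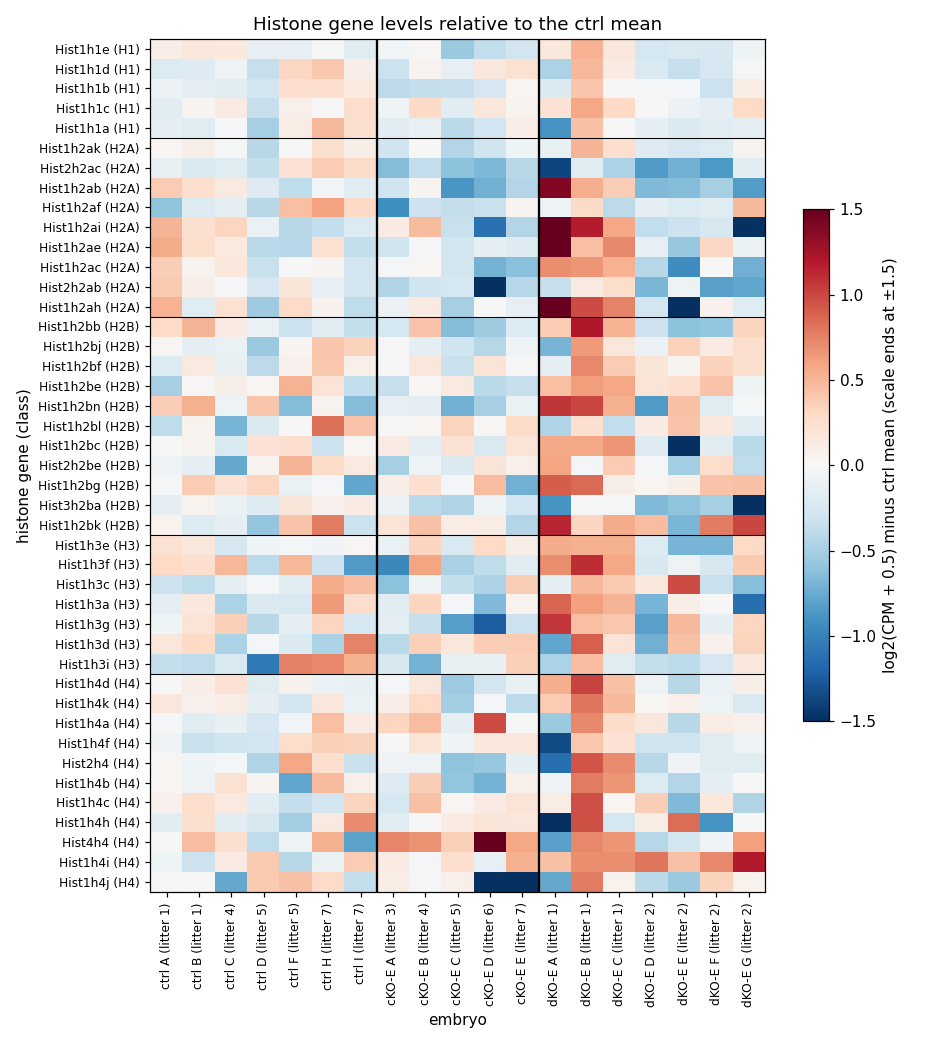
Level of each of the 43 tested histone genes in each of the 19 embryos as log2(CPM + 0.5) minus the ctrl mean on that scale, with red above and blue below and the color scale ending at ±1.5. Rows are grouped by class and columns by genotype. Most rows are red in dKO-E embryos B and C of litter 1 and pale or blue in litter 2, while embryo A of litter 1 has the reddest H2A rows beside blue rows such as *Hist2h2ac*.

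The genes around histone mRNA were taken from lists that did not include the 65. Of 32 tested genes for transcription and processing of histone mRNA, 0 were higher and 2 lower in cKO-E (*Cpsf2*, −0.30, and *Sympk*, −0.22, both of the cleavage machinery), with a median log2 fold change of −0.03. Over all genes tested, 7.31% were higher and 9.88% lower in cKO-E. Before adjustment 2 higher and 6 lower genes of the list had p under 0.05, where 14.3% and 15.5% of all genes did. In dKO-E against ctrl, 5 were higher and 2 lower, with a median of 0.07. *Pou2f1*, which encodes the octamer-binding OCT1, stood at 313 CPM in dKO-E and 406 in ctrl (log2 fold change −0.38, adjusted p = 0.000313), and *Lsm11*, a protein of the U7 snRNP, at 8.79 and 12.8 CPM (−0.62, adjusted p = 0.00935). *Gon4l*, a nuclear cofactor, was higher (0.29, adjusted p = 0.00403), as was *Slbp*, the stem-loop binding protein (0.31, adjusted p = 0.0466). In dKO-E against cKO-E, 2 of 33 were higher and 0 lower, where 5.59% and 9.42% of all genes were. Before adjustment 7 higher and 2 lower genes of the list had p under 0.05, where 12.7% and 14.8% of all genes did. Adjusted p-values are from edgeR's quasi-likelihood test.

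Of 48 tested genes of DNA replication in S phase, 8 were lower and 0 higher in cKO-E than in ctrl, with a median of −0.19 (before adjustment, 16 lower and 0 higher genes had p under 0.05). The shares of all genes lower and higher were 9.88% and 7.31%, and before adjustment 15.5% and 14.3%. *Pola1*, a DNA polymerase subunit (−0.64), *Dut*, which clears dUTP (−0.61), and *Mcm2*, a helicase subunit (−0.79), had the smallest p. In dKO-E 3 were lower and 4 higher than in ctrl (median 0.06), and against cKO-E 10 were higher and 0 lower (median 0.22), and before adjustment 0 lower genes had p under 0.05. The smallest p among the 10 higher genes were those of *Pola2* (0.46, adjusted p = 0.00414), *Mcm5* (0.42, adjusted p = 0.00569) and *Tk1*, thymidine kinase (0.77, adjusted p = 0.00574). The summed S-phase level was 2148 to 2744 CPM in cKO-E, 2426 to 3543 in ctrl and 2728 to 3308 in dKO-E. Its part in the histone levels was not tested.

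Of 30 tested histone chaperones, 8 were lower and 1 higher in cKO-E and 4 lower and 1 higher in dKO-E against ctrl, and dKO-E against cKO-E gave 2 higher and 0 lower, where before adjustment 1 lower gene had p under 0.05. *Mcm2*, which also binds H3 and H4 and stands in both lists, was lower in each mutant. Of 11 histone variant genes outside the clusters, which are expressed through the cell cycle or in arrested cells, 3 were lower and 1 higher in cKO-E, and 1 lower and 3 higher in dKO-E against ctrl. The shares of all genes beside these counts are the same as for the chaperones. The linker variant *H1f0* stood at 106 CPM in cKO-E and 146 in ctrl (−0.47, adjusted p = 0.00152), and *H2afj*, an H2A variant, at 29.4 and 19.1 (0.58, adjusted p = 0.0110). *Cenpa*, the centromeric H3, was lower in cKO-E than in ctrl (−0.33, adjusted p = 0.0169), and dKO-E stood above cKO-E (0.43, adjusted p = 0.00842).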

How the data were processed

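RNA of E13.5 neocortex was made into 1 library per embryo after ribosomal RNA depletion, by Click-seq with molecular identifiers. The authors aligned reads to mm10 with STAR 2.5.2a after trimming with cutadapt 1.13, removed duplicates with UMI-tools 0.5.3 and counted reads per gene with HTSeq 0.6.1p1 (mode intersection-nonempty). Raw counts were deposited for 51912 genes per library. Rows that name no gene, left out of library sizes and tests, held 23.34% to 31.85% of each file's total.

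Counts were filtered with filterByExpr at its minimum count of 10, scaled with TMM factors and tested with edgeR's quasi-likelihood test (edgeR 4.0.16, R 4.3.3), with Benjamini-Hochberg adjustment over every gene tested. Each comparison was fitted on its own libraries without covariates, and a gene was called at a false discovery rate of 0.05. SE is that of the log2 fold change. The procedure was tested on simulated data. Alternatives were DESeq2 1.42.0, the likelihood-ratio test, other scalings and filters, batch, sex and litter terms, and leaving out each embryo. Comparisons of dKO-E litters, and of litters or batch 2 alone, were chosen after seeing the data.

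Sums and classes are described without a test. The p-values measure the spread between embryos of the same genotype, some of them littermates. All dKO-E embryos came from litters 1 and 2, and the main fits had no litter term. The p-values of dKO-E therefore treat littermates as independent and may be too small. Gene models came from GENCODE M21 (GRCm38), in which 51633 of 51912 identifiers were found, and promoters from RefSeq. Members named are those called, and the 3 with the highest mean CPM in each class. From the other lists, genes named for a change were among the 3 with the smallest p in a comparison, but not every such gene was named. *Slbp*, *Cenpa* in cKO-E, members singled out for 0 or few counts, and members named only in the litter comparisons or for 1 embryo left out were added after their values were seen. The members and lists were chosen with earlier results of these data known.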

Additional observations from a re-analysis of the deposited data

Results flagged for a closer look

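Among 69 groups of histone gene values examined for a single embryo far from the rest, 2 had one, where chance gives about 1 in 20. *Hist1h4i* in dKO-E embryo G stood at 12.97 CPM, on 12 counts, where the other 6 dKO-E embryos ranged from 7.53 to 9.85 CPM. *Hist1h2ab* in dKO-E embryo A stood at 204.3 CPM, where the others ranged from 43.2 to 113.

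The dKO-E litters differed in *Hist1h2ab* by 1.44 on the log2 scale (adjusted p = 0.0351, SE 0.21, edgeR quasi-likelihood), higher in 3 of 3 embryos of litter 1 than in any of the 4 of litter 2. The comparison was chosen after its values were seen. Litter was partly confounded with sex: the 1 male of litter 1 stood at 100.2 CPM and the 4 males of litter 2 at 43.2 to 54.6.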

How the results depend on the processing

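The count of called histone genes moved with the processing. In cKO-E against ctrl it was 1, and became 0 at a false discovery rate of 0.001, 4 with the likelihood-ratio test, 2 with a filter of at least 1 count, and 3 with DESeq2, with batch or sex as a covariate, with batch 1 alone or with litter as a block. Of all genes, the likelihood-ratio test called 19.3%, the filter of at least 1 count 7.2% and DESeq2 16.1%. Batch and sex as covariates gave 21% and 18.5% of all genes, batch 1 alone 14% and litter as a block 12.7%. In dKO-E against ctrl it was 3, and became 0 at 0.001, 6 with total counts, 7 with sex, 1 with batch 2 alone, and 9 and 5 with dKO-E litter 1 and litter 2 alone. Total counts called 21.8% of all genes and sex as a covariate 17.3%, and the shares for the litters are given above. In dKO-E against cKO-E it was 1, and became 0 at 0.001 or with batch 2 alone, 3 with the likelihood-ratio test, 4 with total counts, 15 with a filter of at least 1 count, 17 with sex or with litter 1 alone, and 2 with DESeq2, with batch or in 1 fit over 19 libraries. Of all genes, the likelihood-ratio test called 16.2%, total counts 17.1% and the filter of at least 1 count 8.05%. Sex gave 20.8% of all genes, DESeq2 14.2%, batch 14% and the 1 fit 14.3%. Between dKO-E litters it was 1, and became 9 with DESeq2 and 0 with batch 1 alone or with sex. Leaving out each embryo gave 1 to 3, 2 to 5, 1 to 4 and 0 to 10. The cause was not tested.

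The log2 ratio of sums, 0.05 in dKO-E against ctrl, was 0.31 with litter 1, −0.19 with litter 2 and −0.20 with batch 2, and −0.06 to 0.09 without single embryos. Against cKO-E it was 0.23, 0.50 with litter 1, and 0.13 to 0.29 without single embryos. For cKO-E against ctrl it stayed at −0.24 to −0.13. *Hist2h2ac* in cKO-E kept its call in 25 of 26 settings (−0.80 to −0.34), and *Hist1h4i* in 25 of 29. In dKO-E against ctrl *Hist2h2ac* kept it in 26 of 30 (−0.87 to −0.39). The call of *Hist1h2be* held in only 14 of 30 against ctrl (0.13 to 0.77) and in 23 of 27 against cKO-E (0.39 to 0.72). For *Hist1h2ab* between dKO-E litters it held in 5 of 11 (1.02 to 1.64). With total counts the median of all genes in dKO-E against ctrl was 0.10.

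Letters shared between groups did not pair the embryos, since correlations of deviations from group means ran from −0.38 to 0.14. With the letter as a replicate block the called histone genes were 6, 5 and 11 in the 3 comparisons of genotypes. The shares of all genes called in either direction were 15.4%, 8.94% and 12.1%. Depth limited low genes such as *Hist1h4i*, and 5 of the 22 histone genes not tested had no unique window.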
